A study of Mus musculus with 8 samples.

Results

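Focal adhesions are the sites where integrins tie the actin skeleton of a cell to the matrix around it. The 8 genes described here encode their core kinases and adaptors, and were taken as a named set: Ptk2, Ptk2b, Src, Pxn, Bcar1, Vcl, Tln1 and Ilk, all of which were found among 22367 protein-coding genes of mouse chromosomes 1 to 19, X and Y. The rule names the genes and sets no threshold on a measured value. Ptk2 was also one of the genes that the study examined by ChIP-qPCR.

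The histone marks (H3K4me3, H3K9ac, H3K27me3 and H3K36me3) were profiled in tumors of 2 sublines of Lewis lung carcinoma (LLC), a mouse lung cancer line: LLC-NR, labelled drug sensitive, and LLC-R, made resistant to the VEGF inhibitor VEGF-Trap by 5 rounds of selection under that drug in mice. Both were grown under the skin of female C57BL/6J mice aged 6 to 8 weeks, 10 per line, to about 500 mm3, with the label "lung" for the tissue and no drug named for these isografts. Each line gave a single library for each mark, 8 libraries altogether, so no difference between the lines has a replicate check and no p-value is given. Each line stands for 1 selected population, the number of tumors behind a library is not given in the sources used here, and host cells of the tumor were sequenced with the carcinoma cells, so a change in a cell and a change in the mix of cells cannot be told apart.

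In a focal adhesion, talin (Tln1) binds the tail of an activated integrin and pulls on actin, and vinculin (Vcl) strengthens that link. Focal adhesion kinase (Ptk2) is recruited and phosphorylates itself, which docks the kinase Src, and the pair phosphorylates the scaffolds paxillin (Pxn) and p130Cas (Bcar1). Pyk2 (Ptk2b) is the close relative of Ptk2 that also responds to calcium, and integrin-linked kinase (Ilk) works mainly as a scaffold between integrins and actin. In tumors and in the growing vessel these proteins are known for their part in cell migration and survival. Of the marks, H3K4me3 and H3K9ac are typical of active promoters, H3K27me3 is laid down by Polycomb and goes with silence, and H3K36me3 follows the elongating polymerase through the body of a transcribed gene.

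The promoter sequence of the 2 related kinases is shown first because their CpG content differs. The 200 bases upstream of the transcription start site (TSS) of each gene are written 5′ to 3′ on the strand of the gene, from the mm9 genome, with CpG dinucleotides in capitals. The Ptk2 stretch lies on the minus strand at chr15:73253622-73253821 and the Ptk2b stretch on the minus strand at chr14:66899890-66900089.
Ptk2: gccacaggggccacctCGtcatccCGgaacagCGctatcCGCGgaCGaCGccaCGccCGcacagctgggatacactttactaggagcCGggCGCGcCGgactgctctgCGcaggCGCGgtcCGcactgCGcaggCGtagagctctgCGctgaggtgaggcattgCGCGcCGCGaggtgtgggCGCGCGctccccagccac
Ptk2b: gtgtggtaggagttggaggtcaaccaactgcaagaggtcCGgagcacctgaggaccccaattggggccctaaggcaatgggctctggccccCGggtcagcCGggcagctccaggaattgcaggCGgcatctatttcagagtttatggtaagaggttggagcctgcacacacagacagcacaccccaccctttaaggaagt
The Ptk2 stretch held 27 CpGs at a G/C content of 71.5%, and the Ptk2b stretch held 4 CpGs at 58%. Over the whole promoter, which runs from 1 kb before the TSS to 0.5 kb past it, Ptk2 had 140 CpGs and a ratio of observed to expected CpG of 0.951, the highest of the 8 genes, and Ptk2b had 41 CpGs and a ratio of 0.397. Both nevertheless counted as CpG-rich promoters (HCPs), because 1 interval of 500 bp that reaches 55% G/C and a CpG ratio of 0.6 is enough for that class. Of the 8 promoters, 7 were HCPs, where 53.7% of all promoters were. The exception was Ilk, whose TSS used here is an internal one in CpG-poor sequence (LCP).

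All 8 genes were placed by the GENCODE vM1 annotation on mm9. Ptk2 (ENSMUSG00000022607.7) spans chr15:73035535-73253621 on the minus strand, and its 6 transcripts share a single TSS. Ptk2b (ENSMUSG00000059456.6) spans chr14:66772094-66899889 on the minus strand, Src (ENSMUSG00000027646.8) spans chr2:157244180-157297598 on the plus strand, and Ilk (ENSMUSG00000030890.9) spans chr7:112885106-112891439 on the plus strand. The scaffolds Pxn (ENSMUSG00000029528.11, chr5:115956685-116005996, plus strand) and Bcar1 (ENSMUSG00000031955.8, chr8:114234367-114267748, minus strand) come next. The linkers are Vcl (ENSMUSG00000021823.8, chr14:21748655-21852895, plus strand) and Tln1 (ENSMUSG00000028465.10, chr4:43544391-43575563, minus strand). The genes differ widely in length, from 6.33 kb for Ilk to 218 kb for Ptk2. The TSS used was the one with the largest number of transcripts, or the most upstream of these where several tied. That number was 1 for Pxn, Bcar1, Vcl and Tln1 and 2 for Ptk2b, Src and Ilk. For Ilk the TSS used lies 3919 bp downstream of its first TSS and for Src 5948 bp downstream. No coding transcript starts at the TSS used for Src or Tln1. The TSS of Tln1 lies 122 bp from that of Creb3, which is transcribed the other way, so the peaks of this promoter belong to both genes.

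A short run of letters was searched on both strands of each promoter. The GC box (GGGCGG) was present in 7 of 8, all but Ilk, where 62.1% of all promoters and 92.5% of HCPs held it. TATAAA was present in 1, Vcl (50.7% of all promoters), CCAAT in 5 (84.5%), and the palindromic cyclic AMP response element in none (3.54%). A CArG box, the recognition sequence of serum response factor, was found only in Vcl among the members, at -262 bp from its TSS, and in 7.16% of all promoters. It is shown, because it is the rarest of the motifs found in any member, in capitals within the plus-strand stretch chr14:21748355-21748454.
Vcl: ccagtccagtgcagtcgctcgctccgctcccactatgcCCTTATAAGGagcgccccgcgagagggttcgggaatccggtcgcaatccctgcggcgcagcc
These matches describe the letters only.

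The unit of all values is a peak, an interval of 147 bp, the length of DNA around 1 nucleosome. The libraries held between 5660458 and 9101721 peaks. For H3K27me3 the LLC-R library held more than the LLC-NR library (9101721 against 7245090), likewise for H3K36me3 (8747519 against 6432447), whereas H3K9ac held fewer (7853593 against 8547101) and H3K4me3 was nearly level (5660458 against 5678337). The files give a position and no height, so a promoter of 1.5 kb can hold at most about 10 peaks however strong the signal is, and numbers between genes lie close together. The numbers do not separate cell types by their markers: none of the promoters of the marker lists was without an H3K4me3 peak, with 4 to 6 peaks in each line for 7 epithelial and lung markers and 2 to 7 in LLC-NR and 1 to 6 in LLC-R for 8 leukocyte markers. To compare the lines, each number was divided by the mean of all protein-coding genes of its library. A gene was called higher or lower in LLC-R where the log2 ratio went past 0.5 for a promoter or 0.25 for a gene body.

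H3K4me3 was above the mean of all promoters at all 8 genes in both lines. In LLC-NR the promoters of Ptk2, Src and Tln1 held 7 peaks each and the other 5 promoters held 6, against a mean of 4.91. In LLC-R Ptk2 again held 7, Src, Bcar1, Vcl and Ilk held 6, and Ptk2b, Pxn and Tln1 held 5, against a mean of 4.6. Since 63.8% of all promoters lay above the mean in the sensitive line and 58.8% in the resistant one, and HCPs averaged 6.06 and 5.6 peaks, most members lay near other CpG-rich promoters. Ptk2 was the only member with 7 peaks in both lines, at percentile 85 in LLC-NR and 91.9 in LLC-R among all promoters. No member was called either way for H3K4me3, where 11.6% of all promoters were called higher and 10.4% lower. The lowest log2 ratio was that of Tln1, which went from 7 to 5 peaks (-0.36).

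H3K9ac, the second active mark, was as even at 7 of the 8 genes. Src and Bcar1 held 7 peaks in each line, Ptk2 held 6 in each, and Pxn and Tln1 went from 7 to 5. Vcl went from 6 to 5 and Ilk from 7 to 6. None of these 7 genes was called after division by the mean of all promoters, which went from 5.51 to 4.96, or without scaling. Divided by uniquely mapped reads, Ptk2, Src, Bcar1 and Ilk were called higher, where 56.2% of all promoters were.

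Ptk2b stood apart from the other members in H3K9ac. Its promoter held 4 peaks in LLC-NR, the lowest of the 8, and 7 in LLC-R, level with the highest. Its rank went from percentile 15.1 to 92.1 among all promoters, with a log2 ratio of 0.87. It was the 1 member called higher, against 6.36% of all promoters called higher and 8.27% lower, and 17.6% of those that also began at 4 peaks. The value depends on where the window starts: at the TSS 70 bp downstream, which belongs to another protein-coding transcript, the numbers were 5 and 6. Upstream of -500 bp the promoter had 2 peaks (LLC-NR) and 3 (LLC-R), between -500 bp and the TSS 1 and 1, and downstream 1 and 3. In LLC-R a peak was centred 30 bp downstream of the TSS and covered it, while in LLC-NR the TSS lay in a gap of 464 bp between midpoints at -160 and 304 bp.

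**Figure D1:**
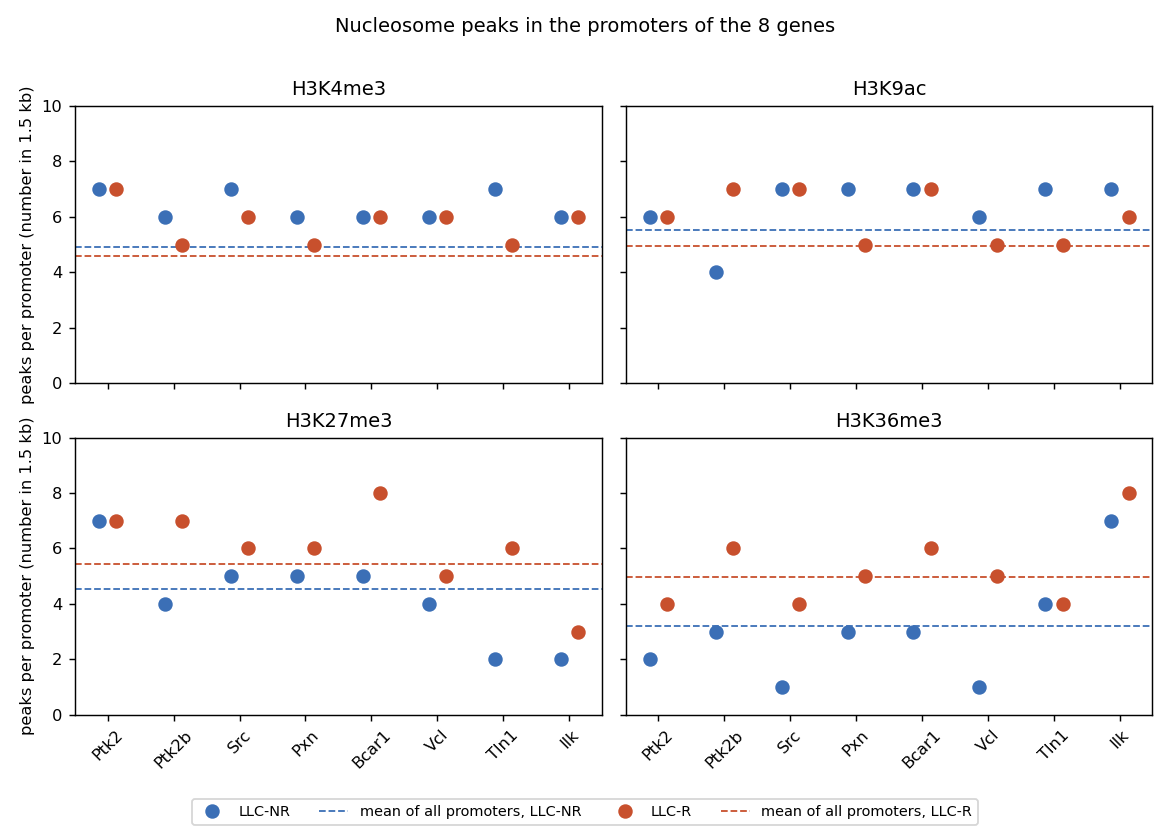
Peaks counted by midpoint in the 1.5-kb promoter of each gene, for 4 marks. Points are single libraries, LLC-NR in blue and LLC-R in orange, with no replicates, and dashed lines are the means of all 22367 promoters. The H3K4me3 points lie at 5 to 7, above both means, and the H3K27me3 and H3K36me3 points spread from 1 to 8.

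H3K27me3 differed more between members than the active marks did. Ptk2 held 7 peaks in both lines, at percentile 92.5 in LLC-NR, the highest of the 8, and 84.2 in LLC-R. The other kinases differed from it in LLC-NR: Ptk2b held 4 peaks, Src 5 and Ilk 2, and in LLC-R they held 7, 6 and 3. The scaffold Pxn went from 5 to 6 and Bcar1 from 5 to 8, which placed Bcar1 at percentile 97.6 in LLC-R. Of the linkers, Vcl went from 4 to 5 and Tln1 from 2 to 6. Thus 7 members had more peaks in LLC-R and none had fewer, but before scaling this also held for 58.5% of all promoters, with 15% having fewer, the LLC-R library being the larger one.

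After scaling, Tln1 (log2 ratio 1.16) and Ptk2b (0.50, just past the threshold) were called higher for H3K27me3, 2 of 8 members against 15.4% of all promoters (6.69% were called lower). Both calls ended when numbers were divided by uniquely mapped reads, which moves the median of all promoters by -0.76 for this mark. The call of Ptk2b also ended with a window of 1 kb either side of the TSS and with division by the peaks of the library. It ended too with a pseudocount of 25% of the mean, at a higher threshold, and with empty promoters left out. That of Tln1 remained in each of these settings. Among promoters that began at 2 peaks, as Tln1 did, 76.7% were called higher, and among those that began at 4, as Ptk2b did, 16.4%. In Tln1 the LLC-NR midpoints lay at -700 and 337 bp, leaving 1037 bp around the TSS with no H3K27me3 peak, the widest such gap in LLC-NR among the members other than Ilk. In LLC-R that gap was 341 bp. At the RefSeq start of Tln1, 108 bp downstream, the numbers were 2 and 7, and at the start of the coding transcript 269 bp downstream they were 3 and 6. The 3 starts of Ptk2b within 70 bp of each other gave 4 and 7 alike. For Tln1 the genome around it moved the other way: the 2-Mb bin that holds the gene had a log2 ratio of -0.16 in its share of H3K27me3 peaks, at percentile 5.01 of 1288 bins. The part of these surroundings in the promoter values was not tested.

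H3K36me3 is a mark of gene bodies. In LLC-NR its mean over all promoters was the lowest of the 4 marks, and in LLC-R it was not. Ptk2 went from 2 to 4 peaks, Ptk2b from 3 to 6, Src from 1 to 4, Pxn from 3 to 5, Bcar1 from 3 to 6 and Vcl from 1 to 5, while the mean of all promoters went from 3.2 to 4.96. Src (log2 ratio 1.14) and Vcl (1.43) were called higher, against 23.3% of all promoters, and 84.1% of those that began at 1 peak. Tln1 held 4 peaks in each line and was therefore called lower (-0.57), against 18.1% of all promoters. Without scaling, Tln1 did not differ and 6 members were called higher, where 56.4% of all promoters were called higher and 1.53% lower. Ilk held 7 and 8 peaks, at percentiles 99.2 and 99.1, but its window lies inside the transcribed gene. At the first TSS of Ilk the numbers were 2 and 6, in the range of the other members.

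**Figure D2:**
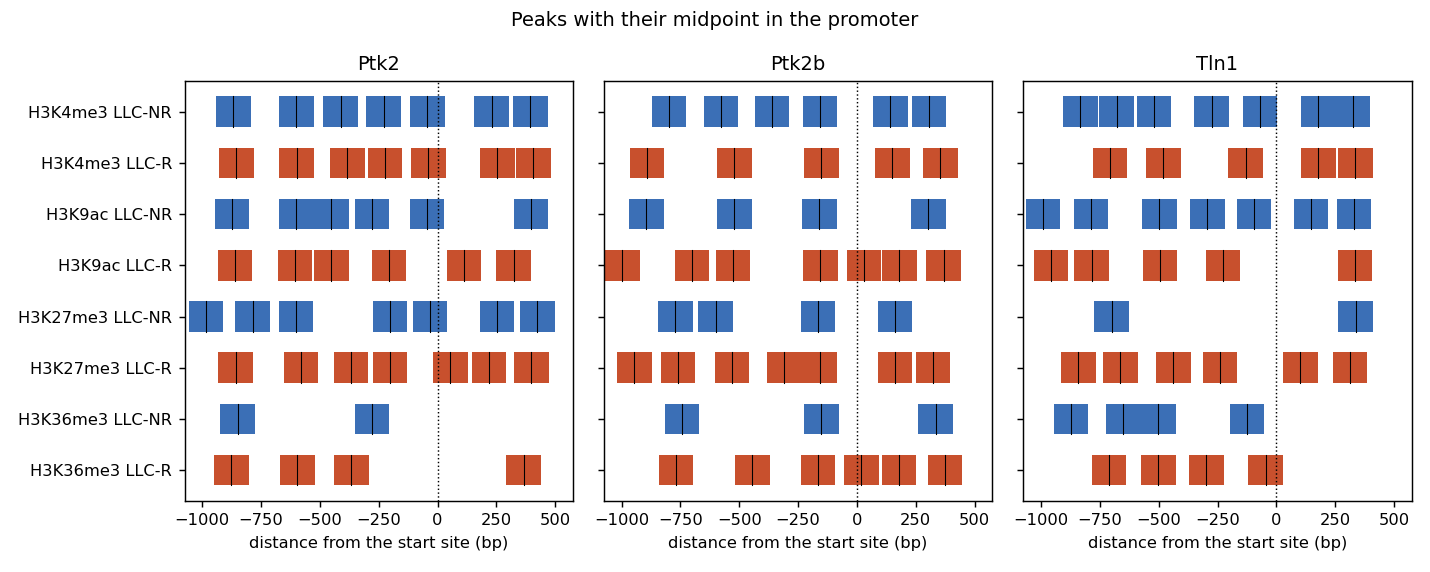
Peaks around the TSS (dotted line) of Ptk2, Ptk2b and Tln1 in the 8 libraries; the horizontal axis is the distance in bp, boxes are 147 bp wide, black lines are midpoints, LLC-NR is blue and LLC-R orange. The H3K4me3 rows of Ptk2 nearly coincide, and the H3K27me3 row of Tln1 in LLC-NR has 2 boxes against 6 in LLC-R.

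Promoter states combine these marks. The methods of the study ask for 2 times the mean of all promoters in H3K4me3 or H3K9ac, measured as normalized tag counts. Peak numbers cannot meet that rule in any gene. No promoter held over 9 peaks of either mark, which is below 2 times the mean in both lines. That rule therefore says nothing about the members here. A figure legend of the study gives the mean itself as the threshold, and that rule was used here: active where H3K4me3 or H3K9ac reaches the mean and H3K27me3 does not, bivalent where both kinds do. In LLC-NR Ptk2b, Vcl, Tln1 and Ilk were active and Ptk2, Src, Pxn and Bcar1 were bivalent. In LLC-R Vcl and Ilk stayed active and the other 6 were bivalent. So 2 of the 8 promoters, Ptk2b and Tln1, had another state in LLC-R, where 37.9% of all promoters did. In LLC-NR, 29.8% of all promoters were active and 48.3% bivalent, and in LLC-R 28.4% and 52.9%. No member was repressive (8.2% of all promoters in the sensitive line and 5.73% in the resistant one) or below all 3 means (13.6% and 12.9%). The states rest on small margins: Src, Pxn and Bcar1 passed the H3K27me3 mean of LLC-NR by 0.45 peaks, and Ptk2b and Vcl lay -0.55 peaks from it. Ptk2 was the firmest bivalent promoter in LLC-NR, 2.09 peaks above the mean for H3K4me3 and 2.45 above it for H3K27me3. Bivalent here says only that both numbers were at or above the mean, not that the 2 marks sat on the same nucleosome or in the same cell.

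At nucleosome scale, Ptk2 kept its H3K4me3 positions closely. The 7 peaks of LLC-NR were centred at -868, -600, -412, -229, -44, 230 and 395 bp from the TSS, and those of LLC-R at -855, -599, -383, -224, -40, 254 and 407 bp. All 7 had a partner within 40 bp, the nearest 1 bp and the farthest 29 bp away. Of the 4206 promoters with 7 peaks in LLC-NR, 3.04% had all of them shared, a figure chosen after the positions of Ptk2 were seen. In the other marks Ptk2 shared 3 of 6 H3K9ac peaks, 4 of 7 H3K27me3 peaks and 1 of 2 H3K36me3 peaks.

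The other members shared fewer H3K4me3 positions. Src shared 5 of 7, Pxn, Bcar1 and Vcl 4 of 6 each, Tln1 3 of 7, and Ptk2b and Ilk 2 of 6 each. Over the 8 promoters 31 of 51 H3K4me3 peaks were shared, 60.8% (exact Clopper-Pearson 95% interval 46.1 to 74.2%, counting error only), against 49.2% of the peaks of all promoters and 56.7% of those of HCPs. The shares were 56.9% for H3K9ac (42.2 to 70.7%), 47.1% for H3K27me3 (29.8 to 64.9%) and 66.7% for H3K36me3 (44.7 to 84.4%), where all promoters had 51%, 50.1% and 47.7%. The intervals treat the peaks of a promoter as independent of each other, so they do not test the members against all promoters.

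The ChIP-qPCR primers of the study for Ptk2 match a stretch of 78 bp at chr15:73253868-73253945, from -324 to -247 bp upstream of the TSS. It is shown on the minus strand with the primer sites in capitals.
Ptk2 amplicon: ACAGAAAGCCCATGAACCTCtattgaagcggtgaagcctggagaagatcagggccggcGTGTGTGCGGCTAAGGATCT
In LLC-NR 1 H3K4me3 peak, centred at -229 bp, covered 56 of its 78 bases, and in LLC-R the peaks at -383 and -224 bp covered 66. For H3K9ac 1 peak covered all 78 bases in LLC-NR and 33 in LLC-R. For H3K27me3 the covered bases were 29 in LLC-NR, from 1 peak, and 59 in LLC-R, from 2 peaks. For H3K36me3 they were 78 and 31. The covered bases differed between the lines for all 4 marks, and the number of promoter peaks was equal for H3K4me3, H3K9ac and H3K27me3. Covered bases show only where peaks of fixed width fall. For H3K9ac 1 peak was centred at -279 bp in LLC-NR and at -206 bp in LLC-R. ChIP-qPCR measures enrichment, which these positions do not give.

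Gene bodies were measured from 0.5 kb downstream of the TSS to the end of the gene, in peaks per kb, among 20474 genes with a body of at least 0.5 kb. H3K36me3 was above the mean at 7 genes in both lines and level with it, to the digits printed, at Ptk2b in LLC-NR; all 8 lay at or above the mean, where 56% of all genes in LLC-NR and 68.6% in LLC-R were above it. Tln1 had the highest density in LLC-NR, 4.11 peaks per kb at percentile 92, and 4.37 in LLC-R at percentile 87.6. Ptk2 had 3.75 peaks per kb in LLC-NR (816 peaks in 218 kb, percentile 75.7) and 4.07 in LLC-R (886 peaks, percentile 58.6). Ptk2b had 2.95 and 3.74 peaks per kb at percentiles 44 and 32.5, the lowest of the 8 in both lines. Its relative Ptk2 was thus the denser of the pair in both lines. Pxn went from 3.28 to 4.34 peaks per kb, from percentile 56.6 to 85.6, and Vcl from 3.46 to 3.88, from percentile 63.7 to 42.9. Src went from 3.51 to 4.26 and Bcar1 from 3.53 to 4.23. Along the bodies the members differed. Cut into 10 equal parts, Vcl averaged 3.05 over the first 5 and 3.87 over the last 5 for LLC-NR, and 3.6 and 4.16 for LLC-R. Src had 3.79 and 3.24 for LLC-NR and 4.05 and 4.47 for LLC-R, and Tln1 had 4.04 and 4.17, then 4.37 in both parts. Genes with bodies of at least 20 kb averaged 3.07 and 3.17 in the LLC-NR library and 3.8 and 3.84 in that of LLC-R.

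H3K27me3 was lower over the bodies of 4 members than over those of the others in both lines. Pxn, Vcl, Tln1 and Ilk were low: in LLC-NR they held 1.7, 1.92, 2.02 and 0.522 peaks per kb, against a mean of 2.76, at percentiles 11.7, 17.4, 21.1 and 4.55. Ptk2 (2.66), Ptk2b (2.84) and Src (2.85) lay near the mean, and Bcar1 was the highest at 3.5, percentile 71.3. In LLC-R the same 4 genes were the lowest of the 8, with 3.26, 3.29, 3.42 and 2.09 peaks per kb against a mean of 3.62, at percentiles 16.2, 17.1, 22.6 and 6.67. Both scaffolds therefore differed from each other, Pxn at 3.26 and Bcar1 at 4.29, in a line where they held 6 and 8 promoter peaks of this mark.

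**Figure D3:**
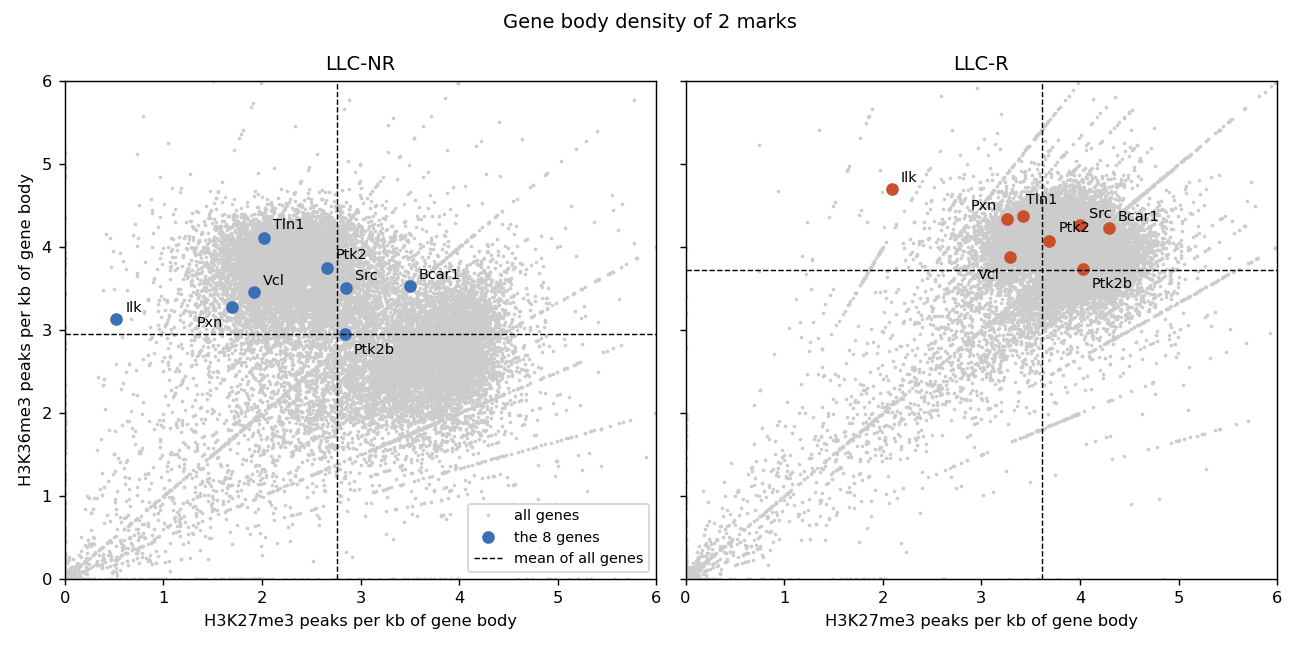
Density of H3K27me3 (horizontal axis) and H3K36me3 (vertical axis) in gene bodies, in peaks per kb, for all genes in grey and the 8 genes in colour, 1 library per mark and line. Dashed lines are the means of all genes. Pxn, Vcl, Tln1 and Ilk lie left of the H3K27me3 mean and above the H3K36me3 mean in both lines, and the grey points lie closer together in LLC-R. Genes above 6 peaks per kb lie outside the axes.

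The 4 highest ratios of H3K36me3 to H3K27me3 density were those of Ilk, Tln1, Pxn and Vcl in both lines, with Tln1 above Pxn in LLC-NR and below it in LLC-R. Ilk had the highest ratio, 6 in LLC-NR and 2.25 in LLC-R, although on 6 peaks against 1 and 9 against 4. Tln1 had 2.03 and 1.28, at percentiles 92.2 and 91.7, Pxn 1.93 and 1.33, at 88.4 and 94.7, and Vcl 1.8 and 1.18, at 84.1 and 79.1. Ptk2 followed at percentiles 64.2 and 63. Bcar1 and Ptk2b were lowest, at percentiles 49.7 and 40 for Bcar1 and 50.4 and 29.3 for Ptk2b. Src lay at percentiles 56.8 and 55.4. The members with lower ratios were thus Ptk2, Src, Bcar1 and Ptk2b, so the scaffolds Pxn and Bcar1 lay in different groups.

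By the log2 ratio of scaled densities, the 4 genes low in H3K27me3 were the 4 called higher in LLC-R: Ilk (1.23), Pxn (0.48), Vcl (0.34) and Tln1 (0.33). The value of Ilk rests on 1 and 4 peaks, and its call ended when the whole gene was counted, while the other 3 were called. Of all genes 26.2% were called higher and 19.5% lower, and the higher calls took in 73.5% of those in the lowest 25% of LLC-NR densities and 10.5% of the others. The LLC-R library held more peaks, and the standard deviation of its densities over genes was 0.258 of the mean against 0.382 in LLC-NR. The part of these differences in the calls was not tested. By rank among all genes, no member moved by over 25 percentile points for this mark. Divided by uniquely mapped reads, which moves the median of all genes by -0.60, the call of Pxn ended, Vcl and Tln1 were called lower with Ptk2, Ptk2b, Src and Bcar1, and Ilk remained higher, where 82.1% of all genes were called lower and 2.36% higher. The 2-Mb bins around Vcl and Pxn had log2 ratios of 0.18 and 0.14 in their share of H3K27me3 peaks, at percentiles 87.8 and 83.5 of all bins, and the part of these surroundings was not tested. No member was called for H3K36me3, where 19.1% of all genes were called higher and 12.5% lower.

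Few differences were called for the active marks in the bodies. For H3K4me3 all 8 log2 ratios were above 0, from 0.09 in Bcar1 to 0.55 in Ilk, where 52.3% of all genes were above 0. Ilk alone was called, against 11.3% of all genes called higher and 10.9% lower. For H3K9ac 4 members were above 0 and 4 below, from -0.08 in Vcl to 0.29 in Ilk, again the 1 member called, against 4.24% of all genes called higher and 5.45% lower. The body of Ilk measured from its internal TSS is only 1.92 kb, with 4 and 6 H3K4me3 peaks and 7 and 8 H3K9ac peaks. Over the whole gene of 6.33 kb the H3K4me3 peaks numbered 22 in each line and the H3K9ac peaks 26 and 25, and neither mark was called over the whole gene. The H3K27me3 peaks of the whole Ilk gene numbered 10 in LLC-NR and 15 in LLC-R, at percentiles 11.1 and 9.27 in density. Pxn had the densest H3K4me3 body of the 8, 3.28 and 3.61 peaks per kb, at percentiles 78.9 and 91.5. Its 2-Mb bin had a log2 ratio of 0.22 for this mark, at percentile 96.8 of 1287 bins, and its part was not tested.

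**Figure D4:**
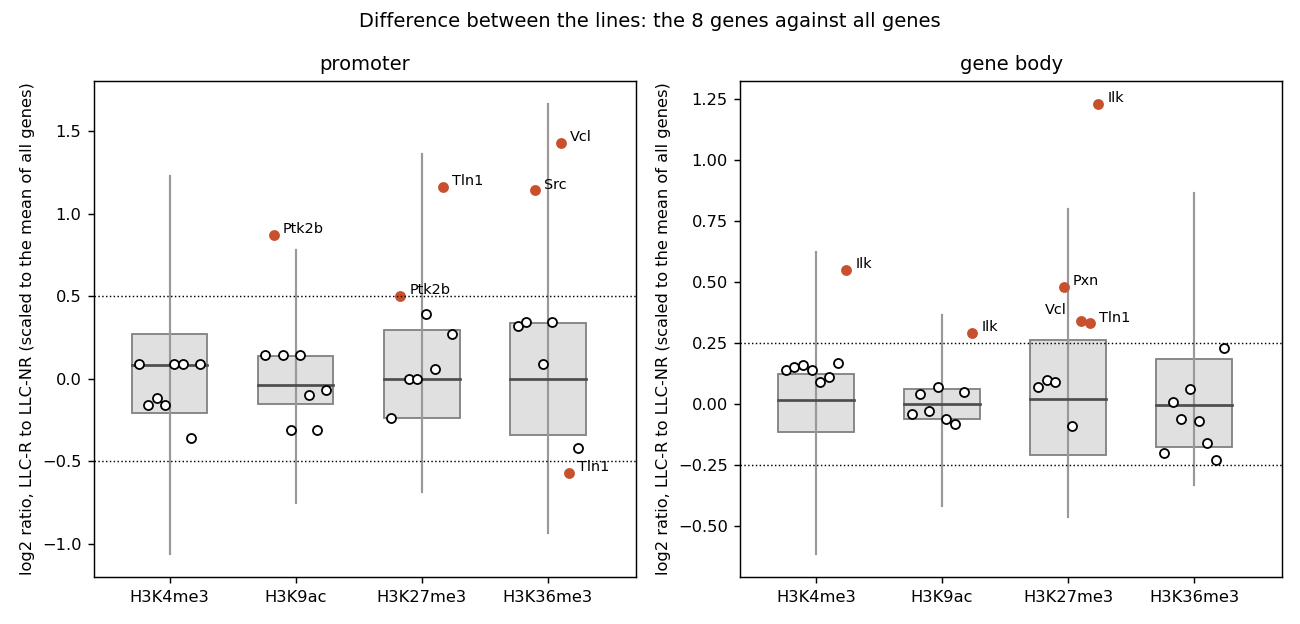
Log2 ratio of LLC-R to LLC-NR for promoters (left) and gene bodies (right), each scaled to the mean of all genes. Boxes show the quartiles and median of all genes, vertical lines the central 95%, circles the 8 genes and dotted lines the thresholds. Filled circles are called genes; 6 promoter and 6 body values were called, and after division by mapped reads instead the H3K27me3 calls at the promoters of Ptk2b and Tln1 ended, that of the Pxn body ended and those of the Vcl and Tln1 bodies turned lower.

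Promoter numbers also differed between the annotated starts of a gene. Pxn has 13 starts, whose H3K4me3 numbers ranged from 3 to 7 in each line and whose H3K27me3 numbers ranged from 2 to 5 in LLC-NR and 4 to 7 in LLC-R. The upstream starts of Ilk had 2 or 3 H3K27me3 peaks in LLC-NR and 4 or 5 in LLC-R, and 3 starts near the end of the gene had 0 in LLC-NR and 4 or 5 in LLC-R. The downstream start of Vcl, 85487 bp into the gene, had 0 and 5. For Ptk2b, the 3 starts far downstream in the gene had 1, 2 and 4 H3K4me3 peaks in the LLC-NR library and 3, 4 and 3 in the LLC-R library, below the 6 and 5 of the TSS used. Ptk2 has a single start, so its numbers do not depend on this choice.

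Over 16 values per gene, the promoter number and the body density of 4 marks in 2 lines, the genes most like Ptk2 were Strbp, Wwtr1 and Nsmaf, at Euclidean distances of 0.907, 0.981 and 0.991 on standardised values, where the median gene lay at 3.61. The genes most like Ptk2b were Herc3 (1.22), Tbc1d8b (1.26) and Pbx4 (1.37), with a median of 3.39. The distance between Ptk2 and Ptk2b themselves was 2.92.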

How the data were processed

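The authors mapped the reads to mm9 with Bowtie 0.12.7, allowing up to 2 mismatches, retained reads with a unique match and ran GeneTrack on each library to call peaks; its settings are not given in the sources used here. The deposited files hold peak positions (start and end, in bp) and no count, height or strand. All peaks were 147 bp wide and none overlapped, and 32 ended past a chromosome. No input library was used here, and no per-sample column was left unmapped (0).

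Midpoints were counted in promoters and gene bodies of GENCODE vM1 genes on NCBIM37, the same assembly, with pysam 0.24.0, pandas 2.3.3, NumPy 2.4.6 and SciPy 1.17.1 under Python 3.11.15, and figures were drawn with Matplotlib 3.10.9. Percentiles are mid-ranks among all protein-coding genes of the same library. Log2 ratios carry a pseudocount, set at 10% of the mean over genes, which understates changes of low values. Promoter states used the mean as the threshold for each mark, and 2 times the mean for active marks was an alternative. Read totals for another scaling came from the supplement of the study. Bins of 2 Mb entered with at least 500 peaks per library. RefSeq starts matched 5 of the 8 genes. All named members were reported by rule; gene lists and members were chosen with earlier results of these data known. The counting was tested on simulated data. With 1 library per line and mark, no test between the lines was run.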

Additional observations from a re-analysis of the deposited data

How the results depend on the processing

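Of 180 recomputed values, 121 stayed within 1.5 times the reported count or within the reported interval, 55 did not and 4 reversed. The counts below are members called either way, of 8.

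Division by uniquely mapped reads moved the median log2 ratio of all promoters by 0.24 (H3K4me3), 0.54 (H3K9ac), -0.76 (H3K27me3) and -0.50 (H3K36me3), and of all bodies by 0.24, 0.61, -0.60 and -0.80. It called 5 promoters for H3K9ac and 4 for H3K27me3, all 4 lower, which reversed the direction, and 8 bodies each for H3K4me3, H3K9ac and H3K36me3 and 7 for H3K27me3, 6 of them lower, a reversal too. Of all genes, 45.7% and 93.7% of bodies were then called higher for H3K4me3 and H3K9ac, 89.8% and 82.1% lower for H3K36me3 and H3K27me3, and of promoters 56.2% higher for H3K9ac and 69.7% lower for H3K27me3. Without scaling 6 promoters were called for H3K36me3, and 0, 8 and 4 bodies for H3K9ac, H3K27me3 and H3K36me3. All of these calls were higher, where 56.4% of all promoters were called higher for H3K36me3. Of all bodies, 60.6% and 54.3% were called higher for H3K27me3 and H3K36me3. Division by the peaks of the library called 1 promoter for H3K27me3, higher, where 12.4% of all promoters were. It called 3 bodies for H3K36me3, all lower, where 29.1% of all bodies were.

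Among window choices, the most upstream TSS called 1 promoter for H3K4me3, 1 kb either side of the TSS called 0 for H3K9ac and 1 for H3K36me3, 0.5 kb either side called 2 for H3K9ac, any overlap of a peak called 4 for H3K27me3, and leaving out promoters empty in all 8 libraries called 1 for H3K27me3. With any overlap, 12.1% of all promoters were called higher for H3K27me3 and 5.74% lower. A pseudocount of 25% of the mean called 1 for H3K27me3. The lower threshold called 1, 3 and 7 promoters for H3K4me3, H3K9ac and H3K36me3, with 2 of the 3 H3K9ac calls lower, a reversal, and 4 bodies each for H3K4me3 and H3K36me3. At that threshold 21%, 19.2% and 34.6% of all promoters were called higher for these marks and 21.1%, 21.2% and 25.2% lower. Of all bodies, 21.4% and 28.6% were called higher for H3K4me3 and H3K36me3 and 19.8% and 29.6% lower. The higher threshold called 0 promoters for H3K9ac and 1 for H3K27me3, and 0 and 1 bodies for the same marks. Whole genes called 0, 0 and 1 bodies for H3K4me3, H3K9ac and H3K36me3, bodies from 3 kb downstream 0 for H3K4me3 and H3K9ac, where Ilk had no body left and 7 members were measured, and a background of bodies of at least 20 kb called 1 for H3K36me3.

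A call by a move of over 25 percentile points, chosen after seeing the data, gave 1 promoter for H3K4me3 (Tln1) and 3 for H3K9ac (Ptk2b higher, Pxn and Tln1 lower, so reversed), and 0 bodies for H3K27me3 and 2 for H3K36me3 (Pxn and Ilk). Members above the mean of all promoters became 5 for LLC-R H3K9ac and 5 for LLC-NR H3K36me3 with any overlap, and 5 for LLC-R H3K9ac and 3 for LLC-R H3K36me3 with promoters that hold a peak. With 2 times the mean for the active marks, active and bivalent members were 0 in both lines. No promoter of any gene held that many peaks, so this outcome was fixed in advance. With the mean plus 1 peak, LLC-NR had 7 active and 1 bivalent members, LLC-R had 3 bivalent, and 4 changed. With the mean minus 1 peak, LLC-NR had 2 active members, LLC-R had 1, and 1 changed. Shared positions within 20 bp were 43.1% (H3K4me3), 17.6% (H3K27me3) and 41.7% (H3K36me3), and within 73 bp 74.5% (H3K4me3), 76.5% (H3K9ac) and 73.5% (H3K27me3). At 20 bp all promoters had 37.5%, 35.3% and 33.9%. At 73 bp they had 64.1% (H3K4me3), 65.9% (H3K9ac) and 69.7% (H3K27me3). The cause was not tested. No paired analysis was possible because each line and mark has 1 library. The number of peaks saturates and carries no signal strength, which limits every value here.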

Other observations

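The proteins that surround the 8 members in the focal adhesion were followed as a list of 47 genes, among them the tensins, kindlins, parvins, Crk adaptors and the Git and Pak proteins. The median H3K4me3 number was 6 in both lines. Of the 47, 41 lay above the mean of all promoters for LLC-NR and 40 for LLC-R, where 63.8% and 58.8% of all promoters did. None was without an H3K4me3 peak, where 4.86% of all promoters were for LLC-NR and 4.87% for LLC-R. By state, LLC-NR had 18 active and 28 bivalent ones, and LLC-R 16 and 30, where 29.8% and 48.3% of all promoters were active and bivalent for LLC-NR and 28.4% and 52.9% for LLC-R. For H3K27me3 in promoters 6 were called higher and 1 lower, where 15.4% and 6.69% of all promoters were. In bodies 16 were called higher and 3 lower for this mark, where 26.2% and 19.5% of all genes were, with a median log2 ratio of 0.12 against 0.02 for all genes. For H3K36me3 in promoters 17 were called higher and 12 lower (23.3% and 18.1% of all). For H3K4me3 in promoters 4 were called higher and 3 lower (11.6% and 10.4% of all), and for H3K9ac 3 and 4 (6.36% and 8.27%). Summed over both lines, the H3K4me3 numbers were lowest, at 6, in Fermt1, Pak1 and Tln2, named here because they tied, and highest, at 15, in 4 genes. Tln2, the second talin, held 4 and 2 H3K4me3 peaks where Tln1 held 7 and 5, and its H3K27me3 numbers were 3 and 7. Its promoter is CpG-poor.

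The 22 integrin genes, whose products the members bind or signal from, had H3K4me3 medians of 6 (LLC-NR) and 5 (LLC-R), with 16 promoters above the mean in each line. H3K27me3 was above the mean at 16 of the 22 promoters of LLC-NR and 20 of LLC-R, where 56.5% and 58.7% of all promoters were. Active integrin promoters went from 6 to 1 between LLC-NR and LLC-R, and bivalent ones went from 15 to 18, beside the shares of all promoters given above. Repressive ones went from 1 to 2, and those below all 3 means from 0 to 1. The bodies of the integrins held median H3K27me3 densities of 3.31 (LLC-NR) and 4 (LLC-R) peaks per kb, against 2.34 and 3.55 for the 8 members. In promoters 3 integrins were called higher and none lower for H3K27me3 (15.4% and 6.69% of all). Their median log2 ratio for this mark was -0.02 in promoters, against 0.00 for all promoters. In bodies it was -0.12, against 0.02 for all genes, with 3 called higher and 3 lower (26.2% and 19.5% of all).

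Lists of markers of other cells were counted first in H3K4me3. The 8 leukocyte markers found of 10 had H3K4me3 medians of 5 (LLC-NR) and 3.5 (LLC-R), with a median log2 ratio of -0.36 and with 4 called lower and 0 higher, where 10.4% and 11.6% of all promoters were. For 5 endothelial markers the medians were 5 and 4 with a median log2 ratio of -0.45, 2 called lower and 1 higher, for 7 fibroblast markers 5 and 5, and for 7 epithelial and lung markers 6 and 5, with a median log2 ratio of 0.08, 1 called higher and 0 lower in each of these last lists. For H3K9ac the median log2 ratio was 0.34 for the endothelial markers, with 1 called higher, and -0.10 for the leukocyte markers, with none called. It was -0.25 for the fibroblast markers and -0.10 for the epithelial and lung markers, with 1 called lower in each. Of all promoters, 6.36% were called higher for H3K9ac and 8.27% lower. The part of the cell mix in the members' values was not tested.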
